A study of Mus musculus with 6 samples.

Results

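Cytochrome P450 families 1 to 3 were examined in mouse kidney with inducible adiponectin overexpression. Members were taken as the protein-coding genes of the deposited table whose GENCODE M21 symbol starts with Cyp1, Cyp2 or Cyp3, followed by a subfamily letter and a number. The rule gave 60 of the 54532 genes in the table, with 3 genes in family 1, 48 in family 2 and 9 in family 3, spread over 16 subfamilies. Of these, 28 genes had a mean of at least 10 counts over the 6 libraries and are called expressed here (2 of family 1, 25 of family 2 and 1 of family 3). The same 28 genes passed the filter on low counts and were tested.

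P450 enzymes of these families are heme proteins of the endoplasmic reticulum that insert an oxygen atom into drugs, solvents, steroids and fatty acids, with electrons that reach them through P450 oxidoreductase and cytochrome b5. They are best known from the liver, but the proximal tubule of the kidney carries a set of its own, and several of them differ between male and female mice. In the kidney, the Cyp2j and Cyp2c enzymes are also known as epoxygenases of arachidonic acid, whose products act on blood vessels and sodium transport.

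Whole kidneys came from male mice on normal chow that all received doxycycline at 600 mg/kg in the diet for 4 days. Control mice carried KsprtTA alone, a transactivator active in tubular epithelium from proximal tubule to collecting duct, and KSPAPN mice carried KsprtTA together with the TRE-adiponectin transgene. Each of the 3 libraries per group was made from RNA of 3 pooled mice, so that a group stands for 9 mice and the spread between libraries is one between pools. The sample labels name the Control genotype WT and the KSPAPN genotype kidney adiponectin overexpression, and their extraction text speaks of liver tissue. The age of these mice is not given in the sources used here.

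Between 17183358 and 20871173 reads were counted on genes in each library. *Adipoq*, the overexpressed gene, had 0 to 2 reads in the Control libraries and 17483 to 26811 reads in the KSPAPN libraries. Proximal tubule markers were abundant in all libraries, with a summed level of 16699 to 18911 CPM (counts scaled to a common library total) in Control and 15609 to 16223 CPM in KSPAPN, and all 12 of them were tested. The 16 hepatocyte markers summed to 38.9 to 50.3 CPM in Control and 28.9 to 58.9 CPM in KSPAPN, and none of them was at 0 in all libraries. Some genes typical of liver had reads mainly in KSPAPN libraries 2 and 3, with *Cps1*, a urea cycle enzyme, at 0, 0 and 0 reads in Control and 1, 14 and 31 in KSPAPN. Results were therefore also computed without both libraries.

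The expressed genes fell into a small abundant group and a long tail. By FPKM (the authors' level, scaled by gene length and library size), 10 genes had a mean of at least 10 over the 6 libraries, 8 lay between 1 and 10, and 10 lay under 1. *Cyp2j5*, the abundant arachidonic acid epoxygenase of mouse kidney, and *Cyp2e1*, which oxidizes ethanol, acetone and other small molecules, were the highest in Control, with a mean of 557 FPKM ± 67.0 (SD, n = 3) and 569 FPKM ± 120 (SD, n = 3). *Cyp2a4*, a testosterone hydroxylase, followed with 276 FPKM ± 116 (SD, n = 3). Together, *Cyp2j5*, *Cyp2e1* and *Cyp2a4* held between 68.5% and 73.2% of the reads of all members in each library. In Control, *Cyp2j11*, *Cyp2d26*, *Cyp2d9*, *Cyp2j13* and *Cyp2a5* came next, and in this order the range of each over the Control libraries overlapped with that of the next.

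**Figure D1:**
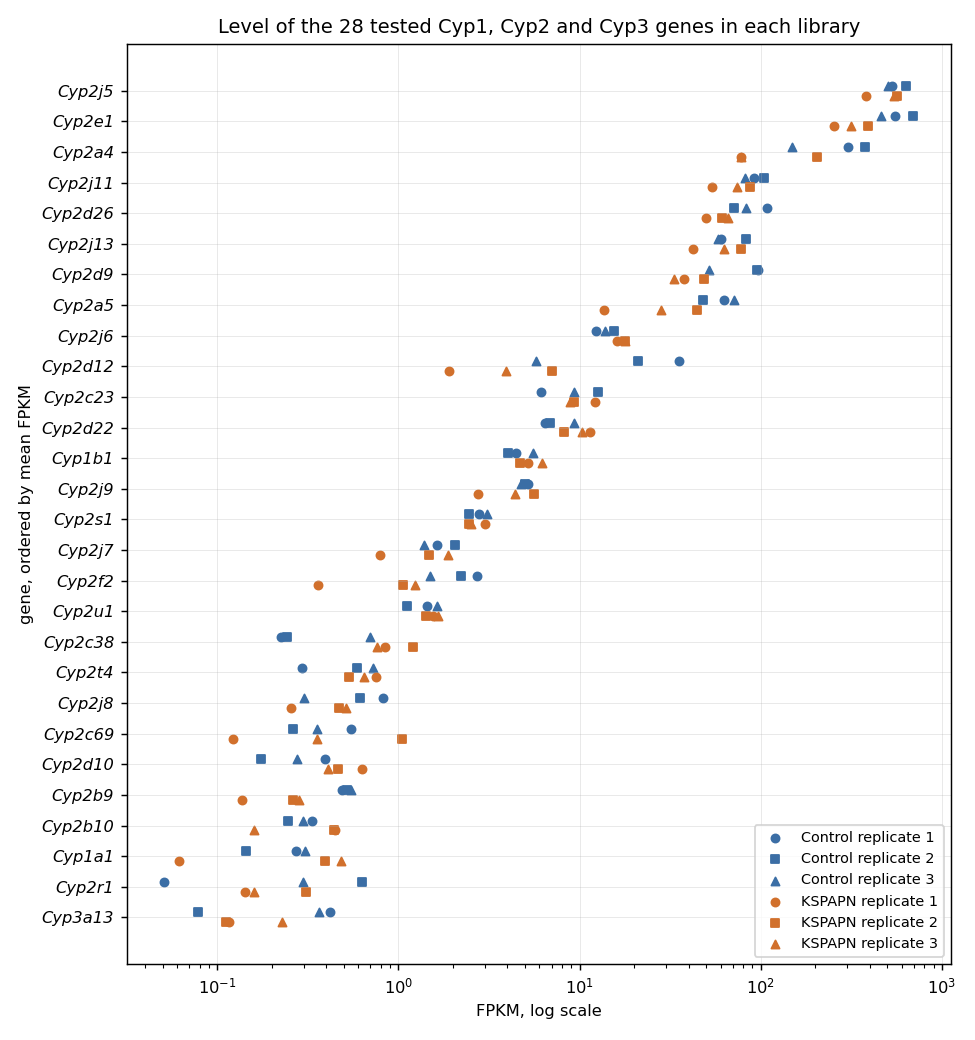
FPKM of the 28 tested genes in each library, on a log scale, ordered by the mean over the 6 libraries; blue marks are Control and orange marks KSPAPN, with the shape giving the replicate number. The levels span from under 1 FPKM for *Cyp3a13* to 697 FPKM for *Cyp2e1* in Control library 2, and libraries of a group lie far apart for *Cyp2d12*.

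Several of the larger subfamilies lie in clusters (GRCm38 coordinates from GENCODE M21). The 8 Cyp2j genes lie on chromosome 4 within 637 kb (chr4:96027534-96664154), and 7 of them were tested. The 8 Cyp2d genes lie on chromosome 15 within 424 kb (chr15:82370527-82794294), and 5 were tested. The 4 Cyp2a genes lie on chromosome 7 (chr7:26307169-27037375), with Cyp2b and Cyp2g genes between them, and 2 were tested. In contrast, only 3 of the 15 Cyp2c genes on chromosome 19 and 1 of the 9 Cyp3a genes on chromosome 5 passed the filter. Of the 28 tested genes, 14 shared no stretch of 100 transcript bases with another gene, whereas more than 10% of such stretches were shared for *Cyp2c69*, *Cyp2d10*, *Cyp2a5*, *Cyp2a4* and *Cyp2u1*. The counts of the first 4 depend on how reads with several matches were assigned, whereas *Cyp2u1* shares its stretches with *4930534D22Rik*, which overlaps it on the opposite strand and had 0 to 7 reads per library.

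The promoters of some tested members are shown from RefSeq (GRCm38.p6), from 250 bases before to 50 bases after the start site. They stand for 3 situations, namely close copies whose estimates had the same sign (*Cyp2a4* and *Cyp2a5*), close copies whose estimates differed in sign (*Cyp2d9* and *Cyp2d10*), and the abundant *Cyp2e1*, which has no close copy. All promoters are written 5′ to 3′ on the strand of the gene, with capitals for matches to either of 2 searched motifs. The motifs were GCGTG (the core bound by the aryl hydrocarbon receptor) and AGGTCA (bound by many nuclear receptors), each searched on both strands, and neither contains the other.
Cyp2a4, chr7:26306942-26307241, plus strand: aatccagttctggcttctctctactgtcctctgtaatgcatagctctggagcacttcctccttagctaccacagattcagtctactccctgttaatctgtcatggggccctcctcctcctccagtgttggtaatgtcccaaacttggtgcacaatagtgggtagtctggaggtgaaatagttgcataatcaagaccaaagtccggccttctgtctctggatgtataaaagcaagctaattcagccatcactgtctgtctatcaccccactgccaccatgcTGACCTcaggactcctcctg
Cyp2a5, chr7:26835089-26835388, plus strand: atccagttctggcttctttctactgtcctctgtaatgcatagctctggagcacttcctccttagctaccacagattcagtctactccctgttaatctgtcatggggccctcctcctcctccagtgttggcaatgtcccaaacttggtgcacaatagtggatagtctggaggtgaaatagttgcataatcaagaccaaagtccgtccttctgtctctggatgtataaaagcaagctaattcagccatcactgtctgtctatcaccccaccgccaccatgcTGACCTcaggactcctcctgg
Cyp2d9, chr15:82452127-82452426, plus strand: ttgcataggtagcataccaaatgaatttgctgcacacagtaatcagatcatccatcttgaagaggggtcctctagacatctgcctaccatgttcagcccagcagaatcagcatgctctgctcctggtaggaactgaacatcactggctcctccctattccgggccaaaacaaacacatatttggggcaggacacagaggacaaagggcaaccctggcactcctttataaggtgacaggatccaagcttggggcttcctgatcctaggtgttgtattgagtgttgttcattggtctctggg
Cyp2d10, chr15:82407145-82407444, minus strand: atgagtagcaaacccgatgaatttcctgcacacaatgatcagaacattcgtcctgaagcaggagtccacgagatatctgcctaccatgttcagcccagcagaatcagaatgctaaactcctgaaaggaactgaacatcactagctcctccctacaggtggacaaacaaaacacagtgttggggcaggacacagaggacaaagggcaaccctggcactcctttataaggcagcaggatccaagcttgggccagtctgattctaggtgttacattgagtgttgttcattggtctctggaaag
Cyp2e1, chr7:140763569-140763868, plus strand: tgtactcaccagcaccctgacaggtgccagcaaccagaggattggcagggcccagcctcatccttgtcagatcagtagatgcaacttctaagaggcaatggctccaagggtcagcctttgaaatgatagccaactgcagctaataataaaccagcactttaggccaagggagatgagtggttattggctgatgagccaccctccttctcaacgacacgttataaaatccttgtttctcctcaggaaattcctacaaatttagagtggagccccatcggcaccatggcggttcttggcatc

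The *Cyp2a4* and *Cyp2a5* promoters were identical at 97.7% of aligned positions (294 of 301) and both held AGGTCA, on the opposite strand, downstream of the start site. The *Cyp2d9* and *Cyp2d10* promoters were identical at 82.9%. Neither motif was matched in the windows of *Cyp2d9*, *Cyp2d10* and *Cyp2e1*. The RefSeq start of *Cyp2d9* lies inside the longer GENCODE gene. A promoter was listed for 52 of the 60 members, and 23 of the 28 tested ones. Among the 55 listed promoters of members, AGGTCA was matched in 19 (34.5%, against 16.3% of all 32851 promoters) and GCGTG in 10 (18.2%, against 32.4%). Among the 24 promoters of tested members these shares lay nearer to those of all promoters, with 6 (25%) and 7 (29.2%). These are matches of letters, and binding was not measured.

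To determine how the family differed between KSPAPN and Control kidneys, all 16017 genes that passed the filter were fitted together. At an adjusted p under 0.05 by edgeR's quasi-likelihood test, *Cyp2e1* and *Cyp2d9* fell in KSPAPN and no member rose. Between 0 and 4 members were called with 1 library left out. The called genes make up 7.14% of the 28 tested members, while 2.65% of all genes tested passed this threshold in either direction and 2.25% were lower (0.393% were higher). At an unadjusted p under 0.05, 3 members were higher (*Cyp2j6*, *Cyp2d22* and *Cyp2c38*) and 9 were lower, which is 42.9% of the members and compares with 18.7% of all genes (7.52% higher and 11.2% lower). The 3 libraries of each group did not overlap, as CPM after TMM normalization, for 9 members (32.1%, against 24.5% of all genes). Of these, 6 were lower and 3 were higher in KSPAPN (13.1% and 11.4% of all genes). *Cyp2b9* and *Cyp2d10*, which are among these 9, passed the filter on low counts through the group where they are higher, and of the 26 others 7 did not overlap (26.9%), close to the share of all genes. *Cyp2b9* is also among the 9 lower at an unadjusted p. DESeq2 called 4 members, all lower (*Cyp2e1*, *Cyp2d9*, *Cyp2d26* and *Cyp2f2*), against 7.22% of the genes to which it gave an adjusted p (1.58% higher and 5.64% lower), and it gave 9 members none. Irrespective of any threshold, 17 members had a lower and 11 a higher estimate, and the median log2 fold change was -0.20 over the members and 0.012 over all genes tested. Libraries of the same group differed more for members than for all genes tested, though on unlike scales. The median coefficient of variation in Control was 23.1% for members, scaled by library total, and 11.6% for all genes, after TMM normalization. These sets were not matched on level. Since whole kidneys were used, fewer cells of a type and less RNA per cell cannot be told apart.

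**Figure D2:**
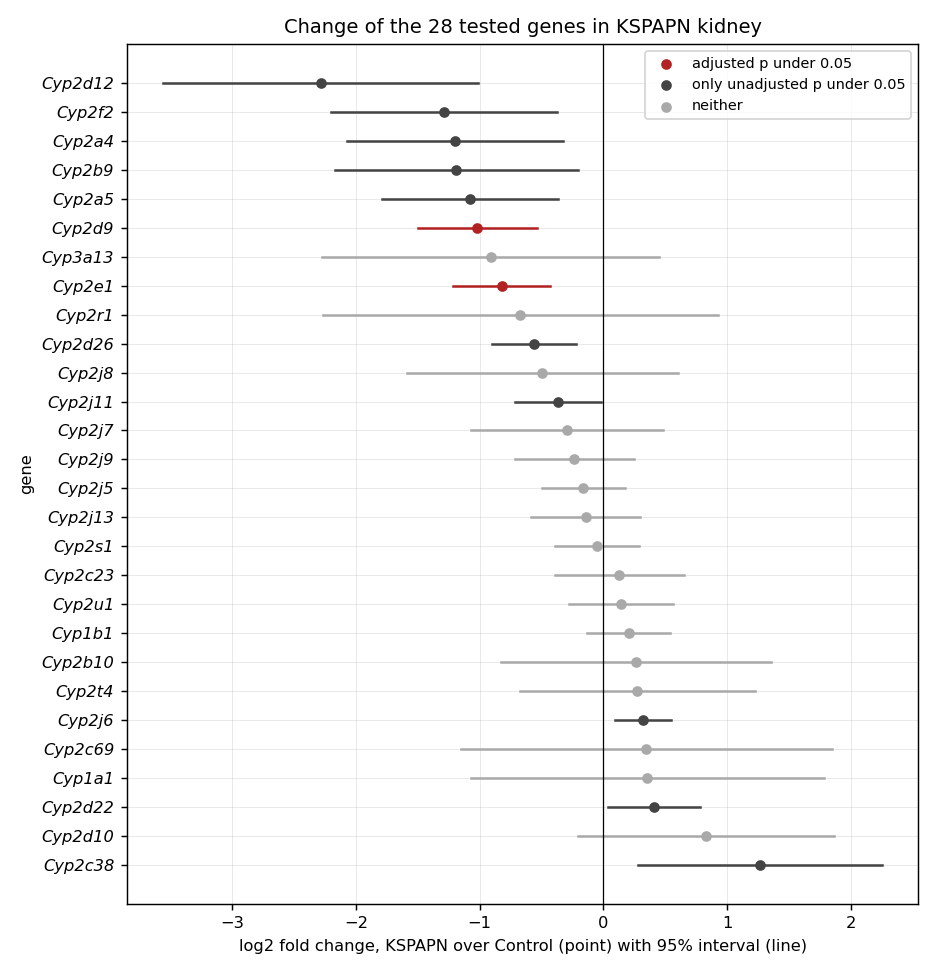
Log2 fold change of KSPAPN over Control (points) with its 95% interval (lines) for the 28 tested genes by edgeR. *Cyp2d9* and *Cyp2e1* (red) passed the adjusted threshold, and of the genes with a higher estimate only *Cyp2j6*, *Cyp2d22* and *Cyp2c38* have an interval that leaves out 0.

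*Cyp2e1* (ENSMUSG00000025479, chr7:140763739-140774987, plus strand) was at 549, 697 and 461 FPKM in the Control libraries and at 255, 394 and 315 FPKM in the KSPAPN libraries. All KSPAPN libraries were below all Control libraries, although KSPAPN library 2 came near Control library 3. The KSPAPN mean was 321 FPKM ± 69.4 (SD, n = 3), and *Cyp2e1* fell by 0.82 on the log2 scale (SE 0.18, 95% interval -1.21 to -0.43, edgeR adjusted p = 0.0399), which is 1.77-fold lower. The call was lost when Control library 1, Control library 2 or KSPAPN library 3 was left out (edgeR adjusted p = 0.149, 0.128 and 0.162) and with limma on log2(FPKM + 1) or log2(FPKM + 0.1) (adjusted p = 0.1 and 0.0999), while the estimate was lower in all 17 alternatives. Within a library, the reads of *Cyp2e1* per read of *Cyp2j5*, a pair chosen after the values were seen, came to 0.947, 1.01 and 0.839 in Control but to 0.616, 0.642 and 0.532 in KSPAPN. These ratios did not overlap and had an exact permutation p of 0.1, the smallest that 3 libraries against 3 allow. Of 7 such ratios computed, this p was reached also by *Cyp2j6* per *Cyp2j5*, whereas the exact permutation p was 0.2 for *Cyp2d9* per *Cyp2d22*, 0.3 for *Cyp2d12* per *Cyp2d9*, 0.4 for *Cyp2d9* per *Cyp2d26*, 0.9 for *Cyp2a4* per *Cyp2a5* and 0.3 for *Cyp2e1* per *Por*.

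*Cyp2d9* (ENSMUSG00000068086, chr15:82433437-82456845, plus strand), a testosterone hydroxylase known from male liver, was at 96.5, 95 and 51.7 FPKM in Control and at 37.9, 48.3 and 33.3 FPKM in KSPAPN. Control library 3 lay well below the other Control libraries and just above KSPAPN library 2, so that the groups did not overlap but came close. *Cyp2d9* fell by 1.02 on the log2 scale (SE 0.22, 95% interval -1.5 to -0.54, edgeR adjusted p = 0.0389), from 81.1 FPKM ± 25.5 to 39.9 FPKM ± 7.70 (SD, n = 3 each), or 2.03-fold lower. Leaving out Control library 1, Control library 2 or KSPAPN library 3 ended this call as well (edgeR adjusted p = 0.183, 0.113 and 0.161). The call was also lost with a correction for GC content and length (edgeR adjusted p = 0.0505) and with total counts only (edgeR adjusted p = 0.0571). Limma on log2(FPKM + 1) or log2(FPKM + 0.1) lost it too (adjusted p = 0.110 and 0.107). The 4 annotated genes that overlap *Cyp2d9* held 0 or 1 read per library, and 9.86% of its 100-base transcript stretches are shared with other genes, among them *Cyp2d10*.

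The other Cyp2d genes had estimates of both signs, and none passed the adjusted threshold. *Cyp2d26* was at 108, 70.8 and 83.4 FPKM in Control and at 49.6, 61.4 and 66.4 FPKM in KSPAPN. All KSPAPN libraries were lower, with a log2 fold change of -0.56 (SE 0.15), but the adjusted p by edgeR was 0.0881. *Cyp2d12* had the lowest log2 fold change of all members, -2.29 (SE 0.57, edgeR adjusted p = 0.067), from 35.4, 21 and 5.72 FPKM in Control to 1.90, 7.02 and 3.93 FPKM in KSPAPN. The Control libraries of *Cyp2d12* differed among themselves by 6.16-fold, and Control library 3 was below KSPAPN library 2. Without Control library 3, *Cyp2d12* passed the threshold (edgeR adjusted p = 0.0121). *Cyp2d22*, on the other hand, was at 6.46, 6.86 and 9.34 FPKM in Control and 11.4, 8.16 and 10.3 FPKM in KSPAPN, a log2 fold change of 0.41 (SE 0.17) with an edgeR adjusted p of 0.225 and overlapping groups. *Cyp2d10*, the close copy of *Cyp2d9*, was barely expressed, with 12, 5 and 8 reads in Control and 24, 14 and 14 reads in KSPAPN (log2 fold change 0.83, SE 0.47). It passed the filter through the KSPAPN libraries, where it is higher.

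The close copies *Cyp2a4* and *Cyp2a5* both had lower estimates that missed the adjusted threshold. *Cyp2a4* (chr7:26307169-26315088, plus strand) was at 304, 377 and 149 FPKM in Control and at 77.4, 205 and 78.1 FPKM in KSPAPN. Its KSPAPN library 2 was above Control library 3, and the log2 fold change was -1.20 (SE 0.39, edgeR adjusted p = 0.137). *Cyp2a5* (chr7:26835305-26843548, plus strand), which hydroxylates coumarin, was at 62.9, 48.3 and 71.4 FPKM in Control and at 13.6, 44.8 and 28.3 FPKM in KSPAPN. All its KSPAPN libraries were lower, with a log2 fold change of -1.08 (SE 0.32, edgeR adjusted p = 0.107). In both genes, KSPAPN library 2 was the highest of its group, yet Control library 3 was the lowest Control for *Cyp2a4* and the highest for *Cyp2a5*. Accordingly, the reads of *Cyp2a4* per read of *Cyp2a5* ranged from 1.75 to 6.54 in Control and from 2.31 to 4.75 in KSPAPN. Without KSPAPN library 2, both passed the threshold (edgeR adjusted p = 0.0256 for *Cyp2a4* and 0.0292 for *Cyp2a5*).

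**Figure D3:**
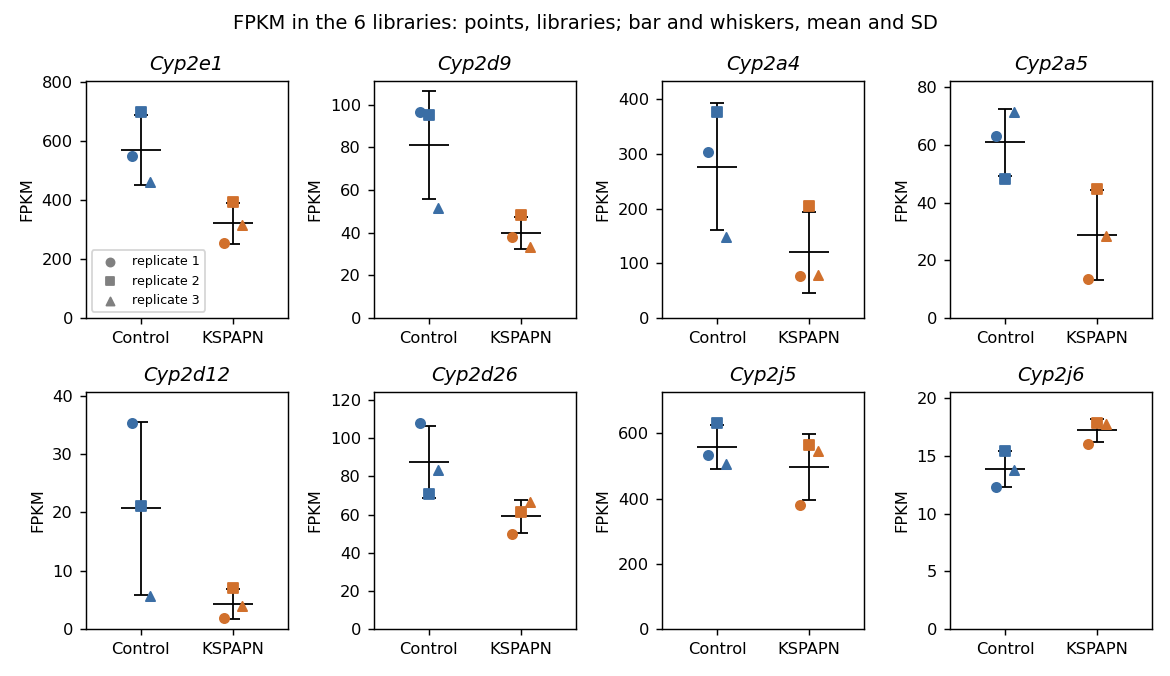
FPKM of 8 genes in the 6 libraries, with the shape giving the replicate number and the bar and whiskers the mean and SD of 3 libraries; each axis starts at 0. *Cyp2e1*, *Cyp2d9*, *Cyp2a5* and *Cyp2d26* are lower in all KSPAPN libraries than in all Control libraries, *Cyp2j6* is higher, and the groups overlap for *Cyp2a4*, *Cyp2d12* and *Cyp2j5*.

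Among the Cyp2j epoxygenases, none passed the adjusted threshold. *Cyp2j5* (chr4:96628773-96664154, minus strand) was at 533, 633 and 505 FPKM in Control and at 381, 564 and 545 FPKM in KSPAPN. The groups overlapped, KSPAPN library 1 stood below all others, and the log2 fold change was -0.16 (SE 0.15), with a 95% interval from -0.50 to 0.17. Without KSPAPN library 1, the log2 fold change of *Cyp2j5* was 0.0096. *Cyp2j11* was at 91.7, 105 and 81.4 FPKM in Control and at 54.1, 87.3 and 73.9 FPKM in KSPAPN, with a log2 fold change of -0.37 (SE 0.16, edgeR adjusted p = 0.242). *Cyp2j13* was at 60.6, 82.9 and 58.5 FPKM in Control and at 42.2, 77.8 and 62.6 FPKM in KSPAPN, and its log2 fold change was -0.14 (SE 0.20, edgeR adjusted p = 0.749). In these genes, too, KSPAPN library 1 was the lowest library and the groups overlapped. *Cyp2j6* differed from its neighbours in sign, with 12.3, 15.4 and 13.8 FPKM in Control and 16.0, 17.9 and 17.7 FPKM in KSPAPN. Its KSPAPN libraries were all higher, with a log2 fold change of 0.32 (SE 0.10, edgeR adjusted p = 0.130). Reads of *Cyp2j6* per read of *Cyp2j5* were 0.0354 to 0.0420 in Control and 0.0488 to 0.0647 in KSPAPN (exact permutation p = 0.1, the smallest possible, for a pair chosen after the values were seen). *Cyp2j9*, *Cyp2j7* and *Cyp2j8* had log2 fold changes of -0.23, -0.29 and -0.49, each with a 95% interval that includes 0.

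The Cyp2c subfamily contributed little RNA. *Cyp2c23*, the main Cyp2c epoxygenase here, was at 6.10 to 12.6 FPKM in Control and 8.85 to 12.2 FPKM in KSPAPN (log2 fold change 0.13, SE 0.23). *Cyp2c38* had the highest log2 fold change of all members, 1.27 (SE 0.45, edgeR adjusted p = 0.163), from 12, 12 and 35 reads in Control to 56, 63 and 45 reads in KSPAPN. The groups did not overlap, but Control library 3 was close to KSPAPN library 3, and without Control library 3 *Cyp2c38* passed the threshold (edgeR adjusted p = 0.0466). *Cyp2c69* had between 5 and 34 reads per library and a log2 fold change of 0.35 (SE 0.68).

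The remaining members with large estimates rested on few reads. *Cyp2f2*, known from the lung for the oxidation of naphthalene, had 102, 78 and 53 reads in Control and 17, 39 and 52 reads in KSPAPN (log2 fold change -1.29, SE 0.41, edgeR adjusted p = 0.129). *Gm15883* overlaps it on the opposite strand, with 134 to 230 reads in Control and 93 to 165 in KSPAPN, and whether reads were counted by strand is not given. *Cyp2b9* had 17, 17 and 18 reads in Control and 6, 9 and 11 in KSPAPN, the smallest relative spread in Control of the members under 1 FPKM (log2 fold change -1.19, SE 0.44, edgeR adjusted p = 0.185). It passed the filter through the Control libraries. *Cyp2r1*, a vitamin D hydroxylase, had 2, 23 and 11 reads in Control and 7, 12 and 7 in KSPAPN, and *Cyp3a13* had 23, 4 and 19 reads in Control and 8, 6 and 14 in KSPAPN. Neither separated the groups, and their SEs were 0.72 and 0.61 on the log2 scale.

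Family 1, which is known for its induction through the aryl hydrocarbon receptor, did not pass the test. *Cyp1b1* was at 4.46, 4.01 and 5.51 FPKM in Control and at 5.17, 4.69 and 6.19 FPKM in KSPAPN, with a log2 fold change of 0.20 (SE 0.15, 95% interval -0.13 to 0.54). *Cyp1a1* had 7 to 15 reads in Control and 4 to 28 in KSPAPN, a log2 fold change of 0.35 (SE 0.64). At so few reads, the 95% interval of *Cyp1a1* ran from -1.07 to 1.78, so that neither a rise nor a fall within it is excluded. The log2 fold changes of *Cyp2b10*, *Cyp2t4*, *Cyp2u1* and *Cyp2s1* were 0.26, 0.27, 0.14 and -0.05, with all 95% intervals including 0. *Cyp2t4* had 9 to 29 reads per library and is overlapped on the opposite strand by *Egln2*, which had 1261 to 2008.

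The 32 members that were not tested had a mean of at most 2.33 counts. Of these, 10 had no read in any library and 22 had 131 reads in all. Among them are some of the P450 genes that are abundant in mouse liver, and several of the 32 had reads only in KSPAPN libraries 2 and 3. *Cyp3a11* had 4 and 10 reads in these libraries, *Cyp3a25* 2 and 2, *Cyp2c50* 2 and 2, *Cyp2a12* 2 and 3, and *Cyp1a2* 8 and 0, with no read in the other 4 libraries for any of them. These are the libraries with more reads on *Cps1* and on *Alb* (111, 100 and 47 reads in Control and 15, 191 and 213 in KSPAPN). Some other hepatocyte markers were not higher there. *Apoc3* had 227, 143 and 164 reads in Control, against 139, 157 and 118 in KSPAPN. For *Fgg*, the reads were 107, 101 and 58 against 46, 61 and 40. Of the 9 hepatocyte markers tested, 4 had higher and 5 lower estimates, 2 of the latter at an unadjusted p under 0.05 by edgeR (11.2% of all genes were lower). This tally leaves out the markers with too few reads to be tested, among them *Cps1*, *Serpina3k*, *Ahsg*, *Mup3* and *Tat*. Summed over these named markers, KSPAPN libraries 2 and 3 held 72 and 93 reads, while each of the other libraries held 2 to 6. The source of the reads on liver genes was not tested. *Cyp2e1*, which is abundant in liver as well, was below every Control library in KSPAPN libraries 2 and 3. With these 2 libraries left out, the log2 fold change of *Cyp2e1* was -1.15 and that of *Cyp2d9* -1.09. The median was -0.84 over the tested members and -0.0053 over all genes. This fit leaves 1 KSPAPN library, assumed to vary like Control, so only effect sizes are given here. That library, KSPAPN library 1, was the lowest of its group in FPKM for *Cyp2e1*, *Cyp2a4*, *Cyp2j11*, *Cyp2a5* and *Cyp2f2*, but not for *Cyp2d9*. It stood apart also in the summed markers of the thick limb and distal segments (6782 CPM, against 4773 to 5582 CPM in the others), of immune cells (76.7 CPM, against 42.5 to 52.3 CPM) and of blood (233 CPM, against 88.5 to 160.4 CPM). Without KSPAPN library 1 instead, *Cyp2e1* and *Cyp2d9* were called and no other member was (edgeR adjusted p = 0.0478 and 0.0482). In that fit, 733 of 16433 genes were called.

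Summed over all members, the family held 0.438%, 0.481% and 0.359% of the reads in Control and 0.257%, 0.364% and 0.316% in KSPAPN. KSPAPN library 2 was above Control library 3, so that the groups overlapped (0.426% ± 0.0618 against 0.312% ± 0.0537, SD, n = 3 each). Most of the difference lay outside the Cyp2j subfamily, which held 0.187% ± 0.0188 in Control and 0.175% ± 0.0295 in KSPAPN. The Cyp2e share was 0.123% ± 0.0220 and 0.0727% ± 0.0121, the Cyp2a share 0.0606% ± 0.0167 and 0.0279% ± 0.0151, and the Cyp2d share 0.0484% ± 0.0136 and 0.0283% ± 0.00158 (SD, n = 3 each). The last of these was the most even among the KSPAPN libraries. With mitochondrially encoded genes and *Adipoq* taken out of the totals, the family held 0.467% ± 0.0681 in Control and 0.350% ± 0.0674 in KSPAPN.

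**Figure D4:**
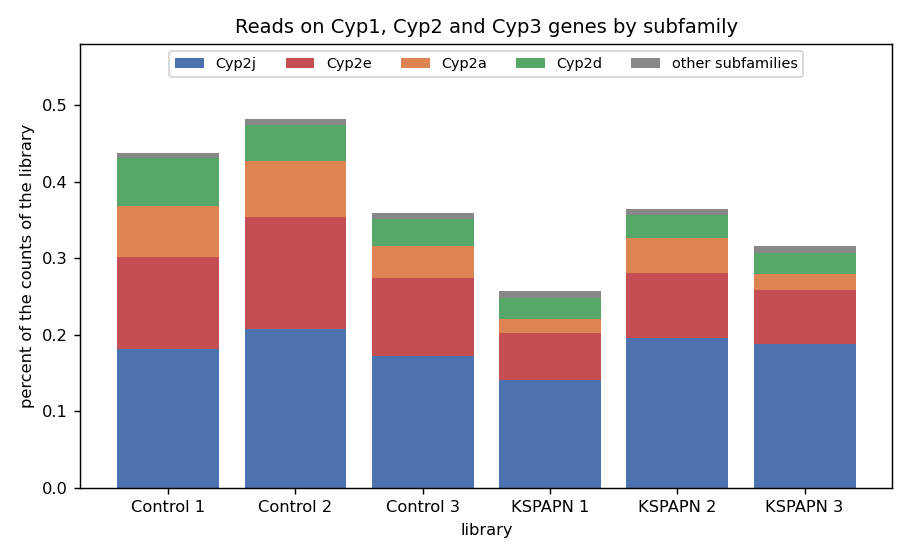
Reads on all members as a percentage of the reads counted in each library, stacked by subfamily. The Cyp2j share lies between 0.141% and 0.208% over all libraries, while the Cyp2e share is 0.102% to 0.146% in Control and 0.0614% to 0.0855% in KSPAPN.

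The genes that serve or control P450 enzymes were described from lists. Of 6 redox partners tested, 1 fell and none rose, where 2.25% of all genes were lower and 0.393% higher. *Por*, the oxidoreductase that passes electrons to all microsomal P450 enzymes, had 6882, 5559 and 6031 reads in Control and 5882, 4492 and 5359 in KSPAPN (log2 fold change -0.45, SE 0.09, edgeR adjusted p = 0.0339). *Cyb5a*, which encodes cytochrome b5, had a log2 fold change of -0.54 (SE 0.14, edgeR adjusted p = 0.0716). The reads of *Cyp2e1* per read of *Por* overlapped between the groups (exact permutation p = 0.3). None of the 8 heme synthesis genes and none of the 3 epoxide hydrolase genes tested passed the adjusted threshold, with 2 and 1 of them lower at an unadjusted p under 0.05 by edgeR, as were 11.2% of all genes. *Ephx2*, the soluble epoxide hydrolase that breaks down the epoxides made by Cyp2j and Cyp2c enzymes, had a log2 fold change of -0.47 (SE 0.12, edgeR adjusted p = 0.0796).

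Of 20 tested regulators of P450 genes, 1 fell and none rose at the adjusted threshold (2.25% of all genes were lower), and at an unadjusted p under 0.05 by edgeR 7 were lower and 1 was higher (11.2% and 7.52% of all genes). *Cebpa*, a transcription factor of liver and proximal tubule, had 961, 728 and 686 reads in Control and 363, 417 and 347 in KSPAPN (log2 fold change -1.27, SE 0.16, edgeR adjusted p = 0.00613). These groups were far apart. *Nr1i2*, the pregnane X receptor, had 103, 88 and 75 reads in Control and 52, 43 and 67 in KSPAPN, with a log2 fold change of -0.92 (SE 0.25) and an edgeR adjusted p of 0.0796. *Hnf4a* had a log2 fold change of 0.03. *Nr1i3*, the constitutive androstane receptor, had 0 to 3 reads per library and was not tested.

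Since several of the members differ between the sexes in mouse kidney, other genes of this kind were set beside them. All 12 genes of the list of those higher in male kidney had lower estimates in KSPAPN, with a median log2 fold change of -0.65, and 4 fell (*Cyp7b1*, *Timd2*, *Slc7a13* and *Slc22a28*), where 2.25% of all genes were lower. *Cyp7b1*, an oxysterol hydroxylase outside families 1 to 3, had a log2 fold change of -2.10 (SE 0.23, edgeR adjusted p = 0.00581). Of the 6 genes higher in female kidney, 1 fell as well, *Cyp4a14* (log2 fold change -2.56, SE 0.32, edgeR adjusted p = 0.00613), and none rose. In this list, 5 of 6 genes had lower estimates, with a median log2 fold change of -1.0. Some of these rested on 1 library. *Prlr* had 1013, 103 and 347 reads in Control and 248, 335 and 366 in KSPAPN, and *Slc7a12* had 407, 22 and 83 against 39, 40 and 47. *Akr1c18* had 674, 293 and 507 against 23, 319 and 358, and *Abcc3* had a log2 fold change of -0.20 (SE 0.30). Lower estimates thus occurred in both lists, and whether the lists differ was not tested. The 4 Y-linked genes all had higher estimates, and none passed the adjusted threshold. Among the markers of tubule segments, 2 of 12 proximal tubule genes fell (*Miox* and *Slc22a6*), again where 2.25% of all genes were lower, with a median log2 fold change of -0.24, and 11 had lower estimates. All KSPAPN libraries were below all Control libraries in the summed proximal tubule level. Of 11 markers of the thick limb and distal segments 1 rose (*Slc12a1*, where 0.393% of all genes were higher), at a median of -0.04, and all 6 glomerular markers had higher estimates, none past the threshold. The part of these shifts in the values of the P450 genes was not tested.

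**Figure D5:**
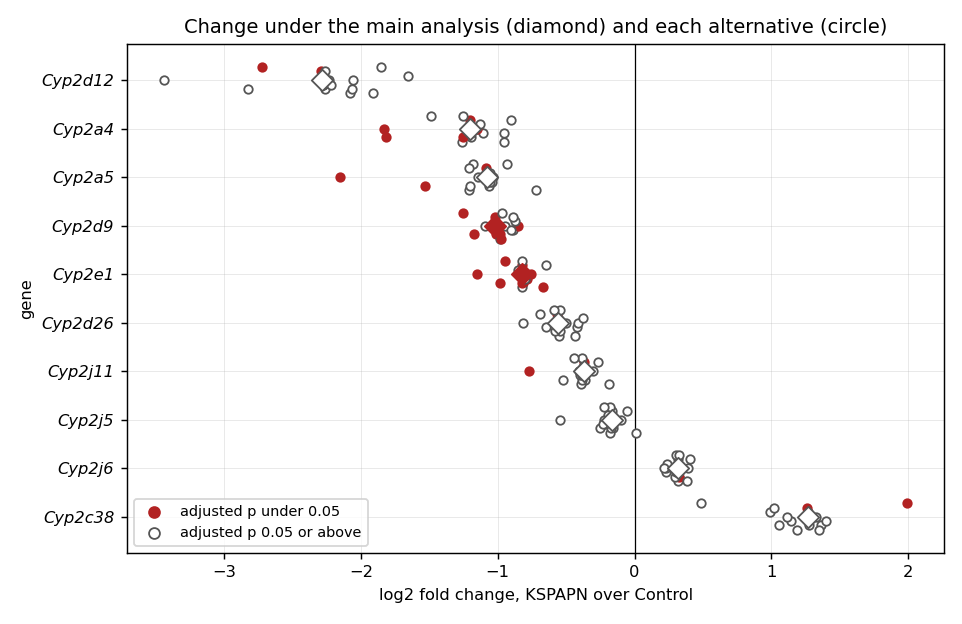
Log2 fold change of 10 genes under the reported analysis (diamonds) and 17 alternatives (circles), with red for an adjusted p under 0.05. *Cyp2e1* and *Cyp2d9* stay below 0 in all alternatives but not always past the threshold, and *Cyp2j5* lies close to 0.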

How the data were processed

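RNA of 6 whole-kidney pools was enriched for mRNA with oligo(dT) beads and sequenced. The authors deposited raw read counts per gene, whole numbers without normalization, and FPKM, which they scaled by gene length and by a library total that is not stated. The submitters' processing notes name STAR 2.5, TopHat, HTSeq 0.6.1, DESeq2 and edgeR without their roles. No genome build, annotation or strand setting is given in the sources used here. Libraries were grouped by their labels. GENCODE M21 (GRCm38) gave symbols, biotypes and coordinates through the Ensembl identifiers (54495 of 54532 matched).

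Counts were tested with edgeR 4.0.16 in R 4.3.3 (TMM normalization, filter with a minimum count of 10 and a minimum total of 15, two-sided quasi-likelihood test, Benjamini-Hochberg adjustment over all 16017 genes). The methods were tested on simulated data. Values in every library are given for members past the adjusted threshold, for the 10 with the highest mean FPKM and for the 6 others with the largest absolute log2 fold change, and for further members by choice after their values were seen. Alternatives were DESeq2 1.42.0, RLE factors, total counts only, TMM without mitochondrially encoded genes and *Adipoq*, no filter, limma 3.58.1 on log2(FPKM + 1) and log2(FPKM + 0.1), a replicate block, a correction for GC content and length without and with the block, and each library left out. Leaving out KSPAPN libraries 2 and 3 was chosen after seeing the data. The members, lists and tests were chosen with earlier results of these data known, and the list of regulators and the sex-biased lists are therefore no independent evidence. Values of some regulators and motifs are not reported here. Permutation tests were exact and two-sided over 20 arrangements. Intervals cover the spread between pools, and reads carry no molecular identifiers. Python 3.11.15, pandas 2.3.3 and matplotlib 3.10.9 were used.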

Additional observations from a re-analysis of the deposited data

How the results depend on the processing

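Over the alternatives, *Cyp2e1* had log2 fold changes from -1.15 to -0.65 and passed the adjusted threshold in 12 of 17, and *Cyp2d9* had -1.25 to -0.85 and passed in 9 of 17. Both missed it with limma on log2 FPKM, without Control library 1 or 2 and without KSPAPN library 3. The 17 alternatives include the fit that leaves 1 KSPAPN library, whose adjusted p does not measure the spread within KSPAPN. Against 2 members and 424 genes, DESeq2 called 4 members (adding *Cyp2d26* and *Cyp2f2*) and 977 genes, and total counts only 1 and 266. With no filter, 10 members and 1339 genes were called (of 50 members and 29418 genes tested). Limma on log2(FPKM + 1) called 0 and 128, and limma on log2(FPKM + 0.1) called 0 and 119. The correction for GC content and length called 1 member and 469 genes. For each gene, the mean of the group was subtracted from the log CPM of each library. The remaining deviations, not the expression levels, were then correlated between Control and KSPAPN libraries. Correlations of these deviations were weak, from 0.0537 to 0.173 for the same replicate number and from -0.18 to 0.021 for different numbers. By these deviations, every library correlated best with its own number. Whether the numbers stand for pairs was not tested, and the reported analysis treated the libraries as unpaired. With the replicate block, 4 members (*Cyp2e1*, *Cyp2a4* and *Cyp2d9* lower, *Cyp2j6* higher) and 929 genes were called, and with the block and the correction 3 members and 717 genes. Leaving out 1 library gave 0 to 4 members and 39 to 733 genes. Without Control library 1, Control library 2 or KSPAPN library 3, 0 members were called, beside 39, 125 and 65 genes. Without KSPAPN libraries 2 and 3, 5 members were called. The sign turned for *Cyp2j5* without KSPAPN library 1 (log2 fold changes with 1 library left out from -0.26 to 0.0096), for *Cyp2j13* without KSPAPN library 1 or Control library 2 (0.038; range -0.35 to 0.075) and for *Cyp2r1* without Control library 2 (range -1.18 to 0.23), and none of these passed the threshold. The median over members ranged from -0.42 to -0.0073 when 1 library was left out. The causes were not tested. With a minimum mean of 50 counts, 17 members counted as expressed.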
